A study of Mus musculus with 2 samples.

Results

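The NRF2 antioxidant program, the glutathione and peroxiredoxin systems and iron handling are represented here by 48 genes, chosen by name and grouped into 7 roles. The choice was made with earlier results of these data known. The roles are the regulators of NRF2, its classic targets, the peroxiredoxins with catalase and the superoxide dismutases, the glutathione transferases and peroxidases, the pentose phosphate and malic enzymes, the iron and heme genes, and the metallothioneins. Of the 48 genes 47 were measured on both arrays, out of 12875 genes measured in the series. The exception was Gsta4.

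The tested culture, Capn6-Ko, came from male calpain-6-deficient mice, and the culture it is set against, Capn6-Wt, from male wild-type mice. The allele, the mouse strain and the age are not given in the sources used here. Both were macrophages grown from flushed femoral marrow in 10% serum with 50 ng/mL of M-CSF, the growth factor that drives marrow cells to become macrophages, and both also received 10 ng/mL of the inflammatory cytokine TNF-α. The description says day 3 of culture and the source name day 4, and the 4 mice named in the design were pooled, with no word on how many per genotype. Each group was 1 array, so there were no replicates, no test between the genotypes was possible and no p-value is given. Every difference below describes a pair of RNA pools.

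NRF2, encoded by Nfe2l2, is a transcription factor that KEAP1 normally holds in the cytosol and passes to a ubiquitin ligase for degradation. Oxidants and electrophiles modify cysteines of KEAP1, NRF2 then accumulates, pairs with a small MAF protein and binds antioxidant response elements in genes for glutathione synthesis, quinone reduction, heme breakdown and NADPH supply. Glutathione and thioredoxin pass electrons from NADPH to peroxidases that remove peroxides, and ferritin stores the iron that would otherwise react with them. In macrophages these systems meet the oxidants of the NADPH oxidase and the iron from engulfed red cells.

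Levels are given as scaled signals, the background-subtracted spot intensities multiplied so that the 75th percentile of each array is 374.5. Differences are log2 values, Capn6-Ko minus Capn6-Wt. The ± is the SD expected from the spread of replicated spots on an array. That spread stems from the array alone, so how much 2 cultures of the same genotype would differ is unknown. Levels of different probes are not compared, since each probe binds with its own strength. The arrays were alike in quality, with 31304 of 59305 spots (52.8%) detected well above background in Capn6-Ko and 30656 (51.7%) in Capn6-Wt. The Capn6 probe read 8.71 on the Capn6-Ko array and 3.91 on the Capn6-Wt array. Neither reading was well above background, and the probe does not check the labels. All 11 macrophage markers with a probe, of 12 listed, were well above background on both arrays, and so were 11 of 12 stromal markers, so detection alone does not check the label.

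Promoter sequences are shown for 5 members that between them cover malic enzyme, glutathione synthesis, cystine uptake, a peroxiredoxin and a glutathione transferase. They come from RefSeq on build GRCm38.p6 and run 5′ to 3′ from 160 bases before the annotated start to 10 bases after it. In Me1, Gclm, Prdx1 and Gsta3 the capitals mark the core letters of the antioxidant response element, TGACNNNGC on either strand. In Slc7a11, whose window has no such letters, the capitals mark the amino acid response element, TGATGNAAN on either strand, a motif known to bind ATF4.
Me1, chr9:86695905-86696074, minus strand: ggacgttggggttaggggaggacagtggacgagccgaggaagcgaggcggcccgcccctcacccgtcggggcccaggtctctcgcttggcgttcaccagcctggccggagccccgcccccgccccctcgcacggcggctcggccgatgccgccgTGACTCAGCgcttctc
Gclm, chr3:122245397-122245566, plus strand: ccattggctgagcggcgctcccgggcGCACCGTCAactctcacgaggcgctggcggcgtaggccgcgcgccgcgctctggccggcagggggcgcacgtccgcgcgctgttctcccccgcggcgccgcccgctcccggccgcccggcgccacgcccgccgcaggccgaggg
Prdx1, chr4:116685439-116685608, plus strand: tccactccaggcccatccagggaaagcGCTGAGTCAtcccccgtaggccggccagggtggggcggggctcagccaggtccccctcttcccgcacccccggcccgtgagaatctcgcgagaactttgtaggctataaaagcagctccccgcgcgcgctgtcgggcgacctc
Gsta3, chr1:21240425-21240594, plus strand: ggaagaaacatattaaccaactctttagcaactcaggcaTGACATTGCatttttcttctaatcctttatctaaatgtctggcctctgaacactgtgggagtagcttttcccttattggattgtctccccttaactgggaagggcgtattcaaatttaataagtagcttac
Slc7a11, chr3:50443604-50443773, minus strand: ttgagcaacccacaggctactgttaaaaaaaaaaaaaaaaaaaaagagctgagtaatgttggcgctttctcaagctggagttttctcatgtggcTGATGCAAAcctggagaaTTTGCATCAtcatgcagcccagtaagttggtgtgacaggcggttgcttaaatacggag

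RefSeq windows of 300 bases were matched for 41 of the 48 genes by symbol, and none for Hmox1, Gsr, Gclc, Prdx6, Sod3, Slc40a1 and Gsta4. The element TGACNNNGC was found in 13 of them (31.7%), against 14% of all genes with a window. Counted by window, it was in 24.5% of 53 member windows and in 12.4% of all 32851. The 13 genes were Nfe2l2, Gclm, Srxn1, Txnrd1, Prdx1, Sod1, Gsta3, Mgst1, Me1, Pgd, G6pdx, Blvra and Mt2. Its first base lay 6 bases before the start in Me1, which makes it run across the start, and 134, 133 and 121 bases before it in Gclm, Prdx1 and Gsta3. The same 9 letters, TGACTCAGC, stood in Me1, Prdx1 and Mt2. These letters contain TGACTCA, the AP-1 motif, so in these 3 genes the same stretch matched both motifs. TGACTCA was in 11.3% of member windows and 5.2% of all windows. It also stood in Gstp1, Mgst2 and Srxn1, at places that do not match TGACNNNGC. The median difference was -0.087 for the 13 genes that hold TGACNNNGC and -0.061 for measured genes with a window that lacks it. TGATGNAAN was in 1 member window, that of Slc7a11, which holds it once on each strand, and in 3.95% of all windows. A match is a description of letters and not a site shown to be bound.

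Across the program the members stood slightly lower in the Capn6-Ko pool. Of the 47 measured members 38 had a difference below 0 (80.9%), where 52.2% of all genes did, and 9 were above 0, where 47.8% of all genes were. The median difference was -0.087 over the members and -0.0056 over all 12875 genes. The middle of the members' distribution, from the first to the last quartile, ran from -0.19 to -0.019, and that of all genes from -0.081 to 0.068. The lowest member was the malic enzyme Me1, at -0.41, and the highest the microsomal transferase Mgst3, at 0.13. The differences were small in size for nearly every member.

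By a log2 difference of at least 0.32, a ratio of 5 to 4, 3 members were lower, Me1, Sod3 and Slc7a11 (6.38% of the 47), where 5.53% of all genes were. That share is close to the background and says little about the members at this size. With the median spot signal in place of the processed signal the count was 1 after normexp, a background correction by a fitted model, and 2 with no background subtraction, and with the processed signal and dim probes kept it was 5. No member was higher by this size, which 2.64% of all genes reached. At 1.1-fold, a size added after the data were seen, 15 members were lower (31.9%), where 15.1% of all genes were, and none was higher, where 12.4% of all genes were. A difference beyond 2 spot SDs, also added after the data were seen, was found below 0 in 15 members, where 6.29% of all genes had one. Above 0 it was found in 2, Prdx3 and Mgst3, where 5.03% of all genes had one.

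The spot spread is wider for dim probes, so the same counts were made among bright genes alone. A bright probe is not a measure of abundance, and the split serves precision only. Of the 47 members 41 had a mean signal above the median of all genes, 638.0. In that brighter set 32 members were below 0 (78.0%), where 51.5% of the 6437 bright genes were. At 1.1-fold 9 bright members were lower (22.0%), against 5.45% of bright genes, and by 0.32 on the log2 scale 1 was, Sod3 (2.44%), against 0.886%. Me1 and Slc7a11 lay below that signal.

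**Figure D1:**
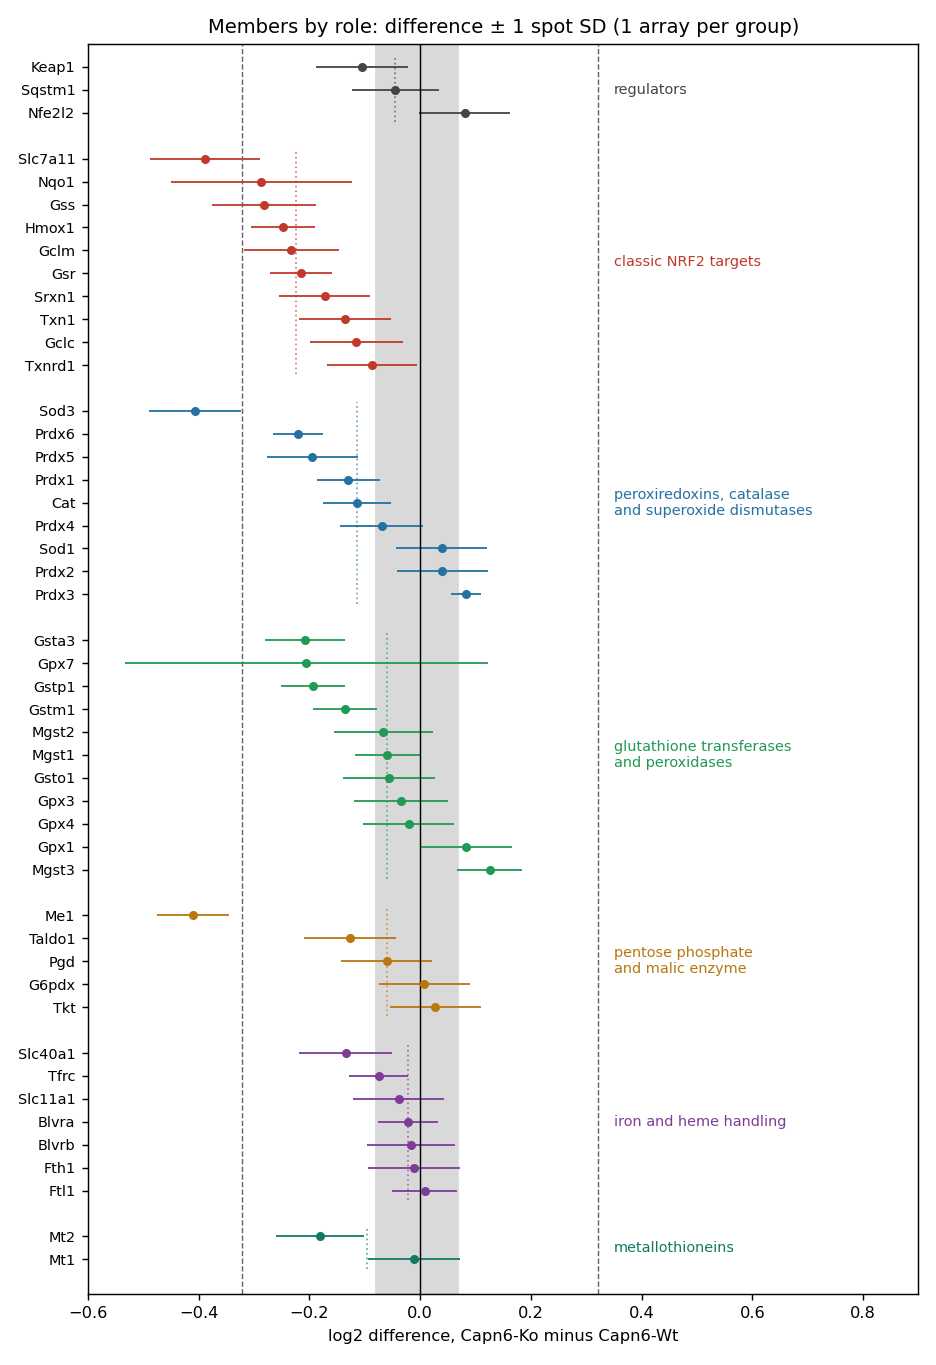
Log2 difference, Capn6-Ko minus Capn6-Wt, of the 47 measured members grouped by role, each point with a bar of 1 spot SD either way. The dotted lines are role medians, the grey band runs from -0.081 to 0.068, the quartiles of all genes, and the dashed lines are at -0.32 and 0.32; all 10 classic targets lie left of 0, while the iron and heme genes lie near it.

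**Figure D2:**
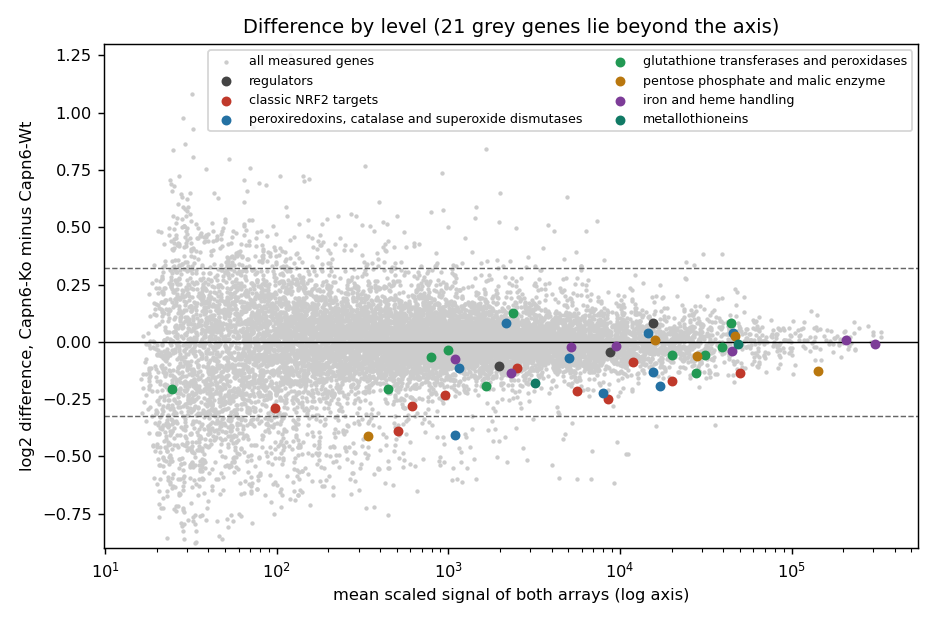
Log2 difference, Capn6-Ko minus Capn6-Wt, against the mean scaled signal of both arrays on a log axis, with members coloured by role over all measured genes in grey. The dashed lines are at -0.32 and 0.32; Me1, Sod3 and Slc7a11 lie below the lower line and no member lies above the upper one.

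The classic NRF2 targets were the role with the lowest median, -0.22, and all 10 were lower in Capn6-Ko, where 52.2% of all genes were. Of these 10 genes 7 were lower by at least 1.1-fold, where 15.1% of all genes were, and 6 by over 2 spot SDs, where 6.29% were. Of the role, Slc7a11 alone was beyond -0.32, and Nqo1 and Gss were just short of it, at 1.22-fold lower each. With the median spot signal the median of the role was -0.14 after normexp and -0.15 with no background subtraction.

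Glutathione synthesis begins with cystine. Slc7a11, the antiporter that brings cystine into the cell in exchange for glutamate, had a scaled signal of 443.9 in Capn6-Ko and 581.0 in Capn6-Wt. This is a difference of -0.39 ± 0.099, or 1.31-fold lower. Glutamate-cysteine ligase then joins glutamate to cysteine in the step that limits the rate. Its modifier subunit Gclm had 880.8 in Capn6-Ko and 1034.8 in Capn6-Wt, a difference of -0.23 ± 0.085. Its catalytic subunit Gclc had 2419.8 in Capn6-Ko and 2621.3 in Capn6-Wt, a difference of -0.12 ± 0.084, so the modifier differed by more than 2 spot SDs and the catalytic subunit by less. Gss, the synthetase that adds glycine in the last step, had 555.6 in Capn6-Ko and 675.5 in Capn6-Wt, or -0.28 ± 0.095. The transporter and all 3 synthesis genes were thus lower in Capn6-Ko, each read from 1 probe.

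Glutathione reductase, encoded by Gsr, returns oxidised glutathione to its reduced form with NADPH. Its brighter probe gave 8850.6 in Capn6-Ko and 10439.5 in Capn6-Wt, and its dimmer probe 3098.9 in Capn6-Ko and 3540.2 in Capn6-Wt. Both probes were lower, and the gene differed by -0.22 ± 0.056. The thioredoxin arm differed by less. Thioredoxin itself, Txn1, had 47673.3 in Capn6-Ko and 52390.8 in Capn6-Wt (-0.14 ± 0.083), and its NADPH-dependent reductase Txnrd1 had 11616.6 in Capn6-Ko and 12342.0 in Capn6-Wt (-0.087 ± 0.081). Srxn1, the sulfiredoxin that repairs overoxidised peroxiredoxins, had 18819.8 in Capn6-Ko and 21214.9 in Capn6-Wt, which is -0.17 ± 0.083 and just beyond 2 spot SDs.

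Heme oxygenase 1, Hmox1, opens the heme ring and frees its iron. Its probes gave 23956.3 and 2572.0 in Capn6-Ko, against 27536.1 and 3157.6 in Capn6-Wt. The probe differences were -0.20 and -0.30 and the gene stood at -0.25 ± 0.058, more than 4 times its spot SD in size. The quinone reductase Nqo1, a gene often read as a gauge of NRF2 activity, was dim here. It had 88.48 in Capn6-Ko and 107.9 in Capn6-Wt, and its -0.29 ± 0.16 is within 2 spot SDs.

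**Figure D3:**
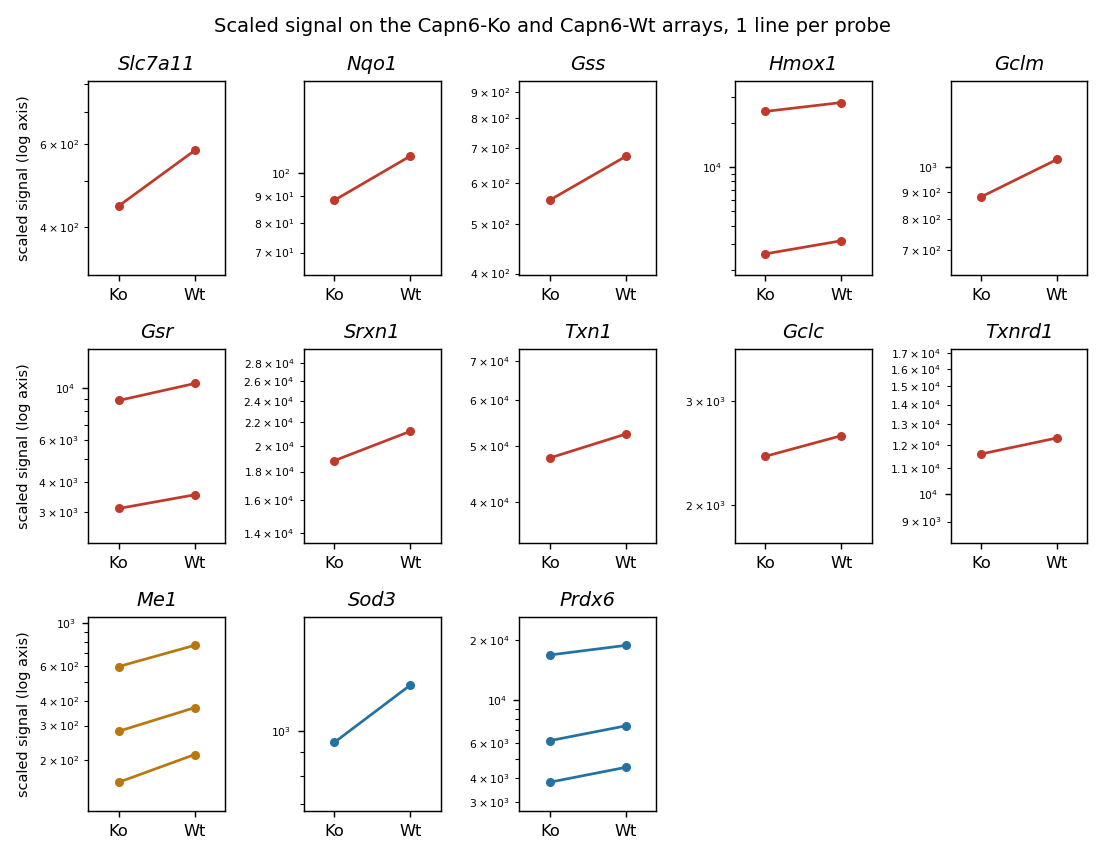
Scaled signal on the Capn6-Ko and Capn6-Wt arrays, on a log axis of its own in each panel, for the 10 classic NRF2 targets and for Me1, Sod3 and Prdx6, with 1 line per measured probe. Every line ends higher on the Capn6-Wt side, including the 3 probes of Me1 (599.8, 280.7 and 154.2 in Capn6-Ko, against 769.5, 370.2 and 213.5 in Capn6-Wt).

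The regulators lay on both sides of 0. The transcript of NRF2 itself, Nfe2l2, had 16000.8 in Capn6-Ko and 15133.2 in Capn6-Wt, a difference of 0.080 ± 0.083. Keap1, its inhibitor, had 1899.8 in Capn6-Ko and 2042.5 in Capn6-Wt (-0.10 ± 0.083). Sqstm1, the autophagy receptor p62 that binds KEAP1 and is also an NRF2 target, had 8675.2 in Capn6-Ko and 8949.7 in Capn6-Wt (-0.045 ± 0.079). None of the 3 differed by 2 spot SDs, and the median of the role was -0.045, or -0.084 with the median spot signal and no background subtraction. Keap1 lay within the range of the classic targets. NRF2 is controlled mostly through its protein, which an mRNA array does not read.

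Among the peroxide and superoxide enzymes, 6 of 9 were below 0 (66.7%), where 52.2% of all genes were, and the median was -0.11. With the median spot signal it was -0.063 after normexp and -0.065 with no background subtraction. Sod3, the superoxide dismutase secreted to the extracellular matrix, was furthest, with 945.6 in Capn6-Ko and 1253.1 in Capn6-Wt. It differed by -0.41 ± 0.083, or 1.33-fold lower. Cytosolic Sod1 had 46254.3 in Capn6-Ko and 45026.1 in Capn6-Wt, a difference of 0.039 ± 0.083, so the secreted and the cytosolic enzyme stood on different sides of 0.

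The peroxiredoxins, which reduce peroxides through a reactive cysteine, were split. Prdx6, the member that uses a single cysteine and also acts as a phospholipase, was furthest at -0.22 ± 0.046. Its 3 measured probes gave 16875.3, 6187.0 and 3803.8 in Capn6-Ko, against 18883.1, 7358.3 and 4527.7 in Capn6-Wt, and all 3 were lower. Its remaining probe, at 3.96 in Capn6-Ko and 10.54 in Capn6-Wt, was at background on both arrays and was left out. Prdx5, which is found in mitochondria, peroxisomes and the cytosol, had 15923.7 in Capn6-Ko and 18224.5 in Capn6-Wt (-0.19 ± 0.083). Prdx1, a cytosolic NRF2 target, had probes at 62273.8 and 3604.8 in Capn6-Ko, against 68520.9 and 3924.0 in Capn6-Wt (-0.13 ± 0.057). Both differences were beyond 2 spot SDs.

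The other peroxiredoxins were near 0 or above it. Prdx4 of the endoplasmic reticulum had 4910.6 in Capn6-Ko and 5152.9 in Capn6-Wt (-0.070 ± 0.075). Cytosolic Prdx2 had 14832.8 in Capn6-Ko and 14431.5 in Capn6-Wt (0.040 ± 0.082). Mitochondrial Prdx3 is the best measured member, because its probe is printed many times. Its 9 spots on the Capn6-Ko array ran from 2076.3 to 2306.0 with a median of 2261.1, and its 10 spots on the Capn6-Wt array ran from 2037.6 to 2205.8 with a median of 2133.7. The spots overlapped, and the difference of their means was 0.084 ± 0.027, higher in Capn6-Ko. Catalase, Cat, which breaks down hydrogen peroxide in peroxisomes, had probes at 674.1 and 1835.6 in Capn6-Ko, against 730.2 and 1986.0 in Capn6-Wt. Its probes agreed at -0.12 and -0.11, with a gene value of -0.11 ± 0.062.

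The glutathione transferases and peroxidases had a median of -0.059, with 9 of 11 measured members below 0 (81.8%), where 52.2% of all genes were. Gsta3, an alpha-class transferase that conjugates electrophiles to glutathione, was furthest at -0.21 ± 0.073. Its probes gave 632.1 and 269.3 in Capn6-Ko, against 724.7 and 313.2 in Capn6-Wt. The pi-class Gstp1 had 2040.6 and 1192.9 in Capn6-Ko, against 2289.6 and 1391.3 in Capn6-Wt (-0.19 ± 0.058). The mu-class Gstm1 had 16656.8 and 42046.8 in Capn6-Ko, against 18189.8 and 46472.1 in Capn6-Wt (-0.14 ± 0.058). All 6 probes of these 3 transferases were lower, and these were the members of the role beyond 2 spot SDs on that side. These transferase families have close paralogs, and how far these probes also bind the paralogs was not tested.

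The glutathione peroxidases of this role showed little difference. Gpx4, which reduces lipid hydroperoxides in membranes, had 39191.2 in Capn6-Ko and 39761.1 in Capn6-Wt (-0.021 ± 0.083). Gpx1, the abundant cytosolic selenoenzyme, had 45618.8 in Capn6-Ko and 43076.7 in Capn6-Wt (0.083 ± 0.083). The secreted Gpx3 had 989.2 in Capn6-Ko and 1013.2 in Capn6-Wt (-0.035 ± 0.084), and its sign changed under other settings. Gpx7, of the endoplasmic reticulum, was close to the detection limit at 22.97 in Capn6-Ko and 26.5 in Capn6-Wt, so its -0.21 ± 0.33 is within the spot error.

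Of the membrane-bound transferases, Mgst3 was the highest of all members. Its probes gave 2010.7 and 3043.7 in Capn6-Ko, against 1842.8 and 2791.8 in Capn6-Wt, at 0.13 and 0.12, with a gene value of 0.13 ± 0.058. Mgst1 stood at -0.059 ± 0.058, Mgst2, which also makes leukotriene C4, at -0.067 ± 0.089, and the omega-class Gsto1 at -0.056 ± 0.083, all within 2 spot SDs. Gsta4, which clears the lipid peroxidation product 4-hydroxynonenal, was not detected. Its 10 spots on the Capn6-Ko array ran from 3.6 to 12.13 with a median of 5.94, and its 9 spots on the Capn6-Wt array ran from 4.98 to 11.87 with a median of 8.71. None of these spots was well above background, so no fold is given.

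NADPH feeds both the glutathione and the thioredoxin reductases, and here the malic enzyme parted from the pentose phosphate genes. Me1, the cytosolic enzyme that makes NADPH while turning malate into pyruvate, was at -0.41 ± 0.065, or 1.33-fold lower. All 3 of its probes were beyond -0.32, at -0.36, -0.40 and -0.47. G6pdx, the first enzyme of the pentose phosphate pathway, had 16139.0 in Capn6-Ko and 16054.4 in Capn6-Wt, a difference of 0.0076 ± 0.083. Pgd, which makes NADPH in the same branch, had 27517.2 in Capn6-Ko and 28697.4 in Capn6-Wt (-0.061 ± 0.083). In the branch that rearranges sugars, transaldolase Taldo1 had 137343.6 in Capn6-Ko and 149926.2 in Capn6-Wt (-0.13 ± 0.083) and transketolase Tkt had 47449.7 in Capn6-Ko and 46560.4 in Capn6-Wt (0.027 ± 0.083). All 4 pentose phosphate genes were within 2 spot SDs, and 2 were on each side of 0. The median of the 5 genes with Me1 was -0.061, or -0.11 with the median spot signal and no background subtraction.

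Iron and heme genes other than Hmox1 were close to equal, with a median of -0.022, or -0.048 with the median spot signal and no background subtraction, and no member at 1.1-fold or beyond 2 spot SDs. The ferritin heavy chain Fth1, which oxidises and stores iron, had 304979.7 in Capn6-Ko and 307371.5 in Capn6-Wt (-0.011 ± 0.083). The light chain Ftl1 had probes at 245264.3 and 177608.0 in Capn6-Ko, against 242218.4 and 177839.4 in Capn6-Wt (0.0081 ± 0.058). No spot on either array was flagged as saturated.

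Slc40a1, the iron exporter ferroportin, was furthest of the iron genes, with 2225.7 in Capn6-Ko and 2443.3 in Capn6-Wt (-0.13 ± 0.084). Tfrc, the transferrin receptor that takes iron in, was at -0.075 ± 0.053 over 3 probes. Its replicated probe ran from 4868.0 to 5661.5 over 10 spots in Capn6-Ko and from 5326.5 to 5823.3 over 9 spots in Capn6-Wt. The spots overlapped, and the difference of their means was -0.054 ± 0.025. That probe was thus beyond 2 spot SDs, while the gene value over 3 probes was not. Slc11a1, the metal transporter NRAMP1 of phagosomes, had 44548.6 in Capn6-Ko and 45775.1 in Capn6-Wt (-0.039 ± 0.083). The biliverdin reductases, which act after heme oxygenase, were near 0 as well. Blvrb had 9420.6 in Capn6-Ko and 9526.9 in Capn6-Wt (-0.016 ± 0.080), and the Blvra probes had opposite signs, 0.041 and -0.085. The signs of Fth1, Ftl1, Blvra and Blvrb were not the same under every setting tried.

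The metallothioneins bind zinc and copper through many cysteines. Mt2 had 3008.4 in Capn6-Ko and 3410.6 in Capn6-Wt, a difference of -0.18 ± 0.080, and Mt1 had 48736.2 in Capn6-Ko and 49119.6 in Capn6-Wt (-0.011 ± 0.083). Their promoters differ in the letters searched. Both hold the metal response element core, written TGCACNC or TGCGCNC on either strand and present in 25.7% of all windows, 3 times in Mt1 and 4 times in Mt2. Of the pair, Mt2 also holds TGACNNNGC, at 79 bases before its start.

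Several probes of a gene offer a check that does not depend on a single spot, although they read the same RNA on the same array. Of the 14 members with several measured probes 12 had probes of 1 sign (85.7%), 11 of them all lower and 1 all higher, whereas 54.2% of 3331 such genes in the series did. The median range between probes of a gene was 0.051 in the members and 0.10 over all genes. Of the 47 members 41 were bright, and the spot spread is wider for dim probes. Neither comparison was repeated among bright genes alone, so the part of brightness in this agreement was not tested. The members with probes of opposite sign were Blvra and Ftl1, both near 0.

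**Figure D4:**
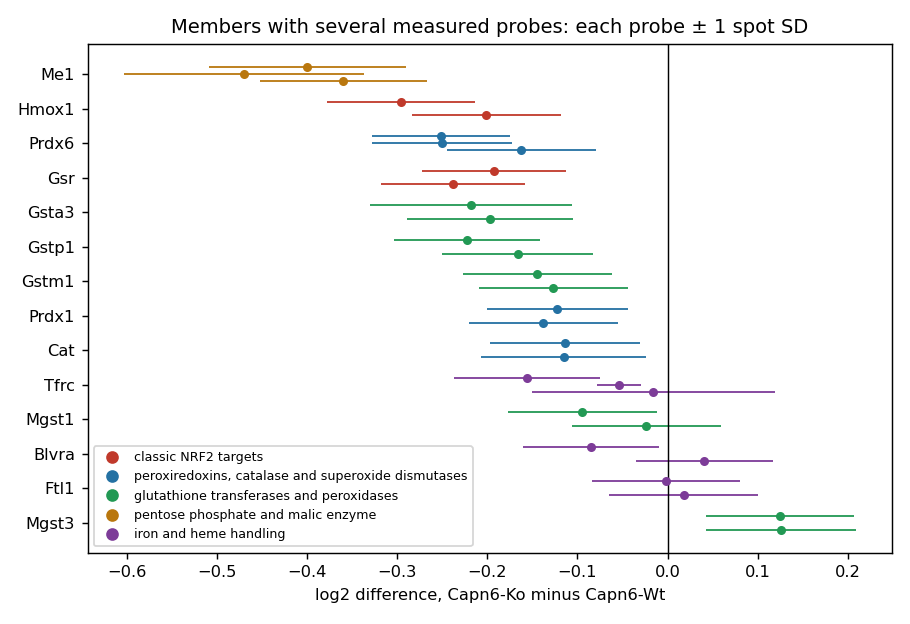
Log2 difference, Capn6-Ko minus Capn6-Wt, of each measured probe of the 14 members that have several, with a bar of 1 spot SD either way, coloured by role. The 3 probes of Me1 lie furthest left, the probes of Mgst3 lie together at 0.13 and 0.12, and those of Blvra and Ftl1 lie on both sides of 0.

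Genes of the same pathways outside the 48 were read from 4 further lists. Of 21 other NRF2 partners and targets 19 were measured, and 14 were below 0 (73.7%), where 52.2% of all genes were. By at least 1.1-fold 6 were lower (31.6%), where 15.1% of all genes were, and none was higher, where 12.4% were. Their median was -0.053, and -0.028 when each gene was read from its brightest probe. The furthest were Nfe2l1, a factor related to NRF2 with 262.9 in Capn6-Ko and 325.5 in Capn6-Wt (-0.31 ± 0.11), and Pir, the iron-binding protein pirin with 137.9 in Capn6-Ko and 169.8 in Capn6-Wt (-0.30 ± 0.14). Neither was beyond -0.32. Slc3a2, the heavy chain that partners Slc7a11 at the membrane and was named after its value was seen, had 31664.8 in Capn6-Ko and 35176.4 in Capn6-Wt (-0.15 ± 0.083).

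All 18 other thiol and peroxide enzymes were measured, with 11 below 0 (61.1%), near the 52.2% of all genes, and a median of -0.071, or -0.047 with bright probes alone. The list held 2 genes beyond -0.32 (11.1%), where 5.53% of all genes were. These were Gpx8, a peroxidase of the endoplasmic reticulum, with 302.6 in Capn6-Ko and 451.7 in Capn6-Wt (-0.58 ± 0.11), and the theta-class transferase Gstt1, with 114.1 in Capn6-Ko and 153.6 in Capn6-Wt (-0.43 ± 0.15). The 9 other NADPH enzymes had a median of -0.024, with Rpia, which converts pentose phosphates, at -0.13 ± 0.085 and the cytosolic isocitrate dehydrogenase Idh1 at 0.13 ± 0.085. Of 26 other iron, heme and zinc genes 23 were measured, with a median of -0.015, or -0.064 with the median spot signal and no background subtraction. The heme synthesis enzyme Ppox (0.17 ± 0.087) was furthest from 0. 

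Cell type markers moved beside these values. In bulk RNA, fewer cells of a type and less RNA per cell cannot be told apart. Of 12 stromal markers 11 were measured. Of these 10 were below 0, where 52.2% of all genes were, and 8 were beyond -0.32, where 5.53% were. The median of the stromal markers was -0.49. Their summed scaled signal was 44612.7 in Capn6-Ko and 64401.0 in Capn6-Wt, and Lum, which marks fibroblasts, was not well above background on either array. The collagen gene Col1a2 had 5519.2 in Capn6-Ko and 8359.8 in Capn6-Wt. Of 11 macrophage markers 7 were above 0 (63.6%), where 47.8% of all genes were. Of the 7, 5 were higher by at least 1.1-fold and by over 2 spot SDs, where 12.4% and 5.03% of all genes were. None was lower by either size, where 15.1% and 6.29% of all genes were. The endotoxin co-receptor gene Cd14 was beyond 0.32, with 5353.3 in Capn6-Ko and 4160.3 in Capn6-Wt. The macrophage median was 0.059, or 0.16 with bright probes alone and 0.13 with the brightest probe of each gene, with a summed signal of 577556.8 in Capn6-Ko and 546599.2 in Capn6-Wt. Sod3, Gpx8, Me1 and the classic targets were thus lower in a pool in which stromal markers were lower too, and the part of these markers in the result was not tested.

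Markers of other marrow cells were mostly dim. Of 12 erythroid markers 4 were measured, with a summed signal of 1018.2 in Capn6-Ko and 1178.1 in Capn6-Wt and a median of -0.24. Alas2, Slc4a1, Epb42, Rhag and Hbb-bs were not well above background on either array. Of 12 neutrophil markers 9 were measured, with a median of -0.016 and sums of 9611.6 in Capn6-Ko and 9581.4 in Capn6-Wt. Of 8 B cell markers 5 were measured, with a median of -0.19. With bright probes alone the value was -0.011, which is that of Blnk, since the other measured B cell markers were too dim for that setting. Their sums were 44147.7 in Capn6-Ko and 44485.9 in Capn6-Wt, of which Blnk alone gave 43831.2 in Capn6-Ko and 44173.9 in Capn6-Wt, and Cd79a was not well above background on either array. Of 8 T and NK cell markers 4 were measured, with a median of -0.043 that turned to 0.0029 with bright probes alone, and sums of 5461.9 in Capn6-Ko and 5363.6 in Capn6-Wt, and Cd3d, Cd3g, Cd8a and Ncr1 were not well above background on either array.

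**Figure D5:**
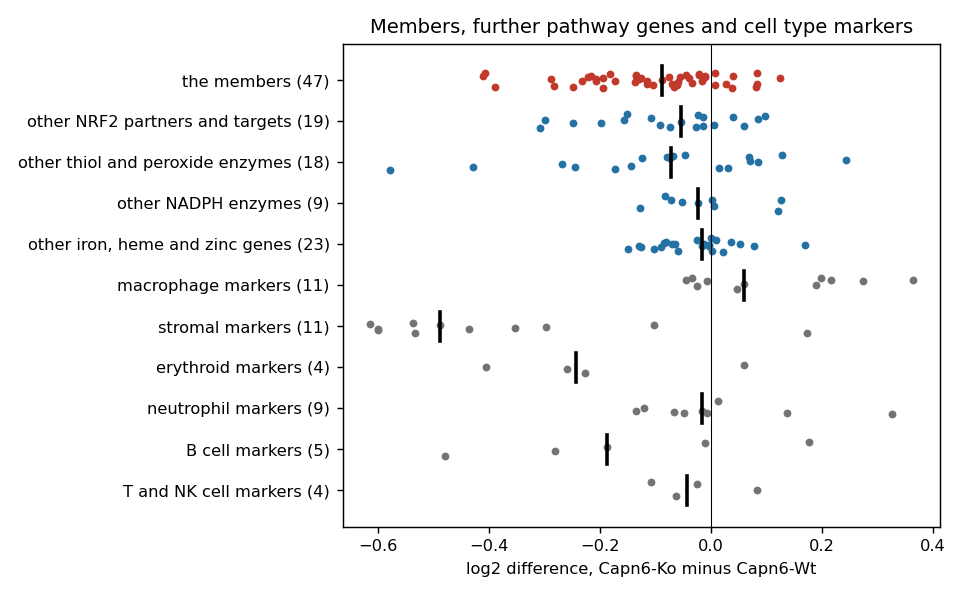
Log2 difference, Capn6-Ko minus Capn6-Wt, of each measured gene of the members, the 4 further pathway lists and the 6 marker lists, with the number of genes in brackets and a black bar at each median. The members' median is -0.087, that of the stromal markers -0.49 and that of the macrophage markers 0.059.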

How the data were processed

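RNA of 2 pooled cultures, Capn6-Ko and Capn6-Wt, was labelled with Cy3 and read on 1 Agilent array each. The deposited scanner files hold spot intensity on a linear scale, which the authors made, per the file headers, with Agilent's Feature Extraction software (version 10.10.1.1). The background-subtracted processed signal was used. Its log2 was taken, minus the 75th percentile of each array (372.1 for Capn6-Ko, 376.9 for Capn6-Wt). Control spots and outlier spots (136 and 161) were dropped, and the remaining spots of a probe averaged. A probe was called measured if, on each array, the majority of its spots passed the scanner software's flag for well above background. Of 55681 probes 27232 were named by RefSeq accession through a GRCm38.p6 gene table, and a gene is the mean of its measured probes. Spot SDs came from 263 replicated probes with at least 5 spots, in 8 bins of level. The steps were tested on simulated data.

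With 1 array per group no test was run, and the number of spots says nothing of the spread between cultures. Members, lists and the rule for named genes were chosen with earlier results of these data known. The rule named all members, and of each further list the genes at least 0.32 apart (log2) or otherwise the 2 furthest. Some genes of the further lists and marker lists are not reported here by name. The authors' deposited value table is on a linear scale, as the processed intensity times 2.42 for Capn6-Ko and 2.39 for Capn6-Wt. Its column medians are 50.68 for Capn6-Ko and 53.01 for Capn6-Wt. The 75th percentile is 900.7 in both columns, so these constants give the arrays a common 75th percentile. How the constants were chosen is not recorded in the labels or headers. The scanner files have no mean-signal column, so the median signal served in the alternatives planned on it. Sequences are RefSeq's, and motifs were searched on both strands. Python 3.11.15, pandas 2.3.3, R 4.3.3 and limma 3.58.1 (normexp and quantile only) were used.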

Additional observations from a re-analysis of the deposited data

How the results depend on the processing

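Under 9 other settings the members' median stayed below 0, from -0.10 to -0.087. Each time 36 to 39 members were below 0 and 0 were higher by 0.32 or more. These counts are not all out of the same 47 members. Bright probes alone leave out dim members such as Nqo1 and Gpx7, and no filter on dim probes adds Gsta4. The setting that used the authors' deposited value table could differ from the main one by rounding only. That table is the processed signal with both columns at a common 75th percentile. The members lower by 0.32 or more numbered 1 after normexp on the median signal and 5 with no filter on dim probes. The median of the classic NRF2 targets was -0.14 after normexp on the median signal and -0.15 for the median signal with no background subtraction, and that of the peroxiredoxins, catalase and superoxide dismutases was -0.063 and -0.065. The cause, the signal column or the background step, was not tested. Of the 47 members 42 kept 1 sign under every setting that measured them, 34 lower and 8 higher, and Gpx3, Fth1, Ftl1, Blvra and Blvrb did not. The median of all genes ran from -0.044 to 0.0009. The number of arrays limits every value, and dim genes such as Gpx7 and Nqo1 lie near the background. No paired analysis was possible because each group has 1 array.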
